A study of Mus musculus with 24 samples.

Results

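Genes of arginine, nitric oxide and polyamine metabolism, 10 in all, were followed through the 24 RNA-seq libraries of the study: Slc7a2, Nos2, Gch1, Ass1, Asl, Arg1, Arg2, Odc1, Azin1 and Sat1. The 10 genes were chosen by name for their place in these pathways, with earlier results of these data known. Their counts beside those of all genes are therefore a description. They were found by gene symbol among the 18063 genes listed for each library of LPS/IFN-γ-stimulated (M1) cells and the 17786 listed for each library of IL-4/IL-13-stimulated (M2) cells. The cells were BMDMs, macrophages grown in culture from bone marrow, of WT or DRD5-/- C57BL/6 mice of 10 weeks. DRD5-/- mice lack dopamine receptor D5 through a CRISPR-Cas9 deletion. Stimulation lasted 12 h, with 100 ng/ml of LPS plus 50 ng/ml of IFN-γ for M1, and with IL-4 plus IL-13 at 10 ng/ml each for M2, either without further treatment or together with dopamine (DA), at 20 μM in the study's methods. This gave 8 groups of 3 libraries, with each genotype present without and with DA under each stimulus. All groups, the controls included, had received 1 of the 2 stimulating mixtures, so no library of unstimulated cells was analysed here. "Untreated" below means without DA.

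Macrophages take up arginine and spend it along competing routes. Inducible nitric oxide synthase turns arginine into nitric oxide and citrulline, and citrulline can be rebuilt into arginine. Arginase instead splits arginine into urea and ornithine, and ornithine feeds the polyamines putrescine, spermidine and spermine, or proline. The nitric oxide route is a classical property of LPS/IFN-γ-stimulated mouse macrophages, and arginase 1 is a classical marker of IL-4/IL-13-stimulated ones.

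The values are FPKM, fragment counts scaled to the length of the transcript and to the mapped fragments of the library, as the authors deposited them. Each M1 library listed 9774 to 9879 genes at an FPKM of at least 1, and each M2 library 10349 to 10444. The spacing of the lowest FPKM of genes with a single annotated transcript gave an estimated depth of 15700000 to 19700000 fragments per library. All 7 macrophage markers examined were present, with summed levels of 7923 to 7993 FPKM in DA-treated M1 WT and 7021 to 7444 FPKM in the other M1 libraries, and of 8292 to 8329 FPKM in DA-treated M2 WT and 10560 to 11173 FPKM in the other M2 libraries. Lyz2 was the largest part of these sums, with means of 4850 and 5350 FPKM without and with DA in M1 WT, and 6800 and 4750 in M2 WT. The markers did not all move with the sum. Adgre1 alone had a lower mean with DA in M1 WT (601 to 558 FPKM). Itgam alone had a higher one in M2 WT (132 to 198 FPKM), where Cd68 hardly moved (2230 to 2210 FPKM). The labels name bone as the tissue but colons in the note on growth, and these markers do not tell the 2 apart. The study's methods state that the BMDMs were grown from marrow of tibias and femurs. The stimuli matched their markers: 7 LPS/IFN-γ markers summed to 3297 to 3701 FPKM in M1 and 15.4 to 26.6 FPKM in M2 libraries, and 7 IL-4/IL-13 markers to 14.0 to 23.3 FPKM in M1 and 468.1 to 1100 FPKM in M2 libraries. The lists for T cells, B cells, dendritic cells, erythroid cells and mast cells summed to at most 6.66 FPKM in a library, the highest for T cells in M2. The level of Drd5 could not check the genotype, because Drd5 was not among the M1 genes analysed here and was at 0.06 FPKM or below in every M2 library. In M1 libraries, 6 neutrophil markers summed to 35.2 to 45.0 FPKM in untreated WT, 55.9 to 68.2 in DA-treated WT, 14.5 to 18.2 in untreated DRD5-/- and 17.3 to 19.9 in DA-treated DRD5-/- BMDMs, mostly from S100a8 and S100a9, with Elane at 0 in every M1 library. In M2 libraries, 4 fibroblast markers summed to 117.6 to 120.4 FPKM in untreated WT, 93.1 to 94.6 in DA-treated WT, 73.8 to 75.9 in untreated DRD5-/- and 80.6 to 81.3 in DA-treated DRD5-/- BMDMs, none of them at 0. The 4 did not move together with DA in M2 WT cells. The means of Dcn (75.1 to 43.3 FPKM) and Pdgfra (3.39 to 1.47) were lower with DA. Those of Col1a1 (19.0 to 23.4) and Col1a2 (21.5 to 25.9) were higher. The part of these markers in the results below was not tested. In bulk RNA, fewer cells of a type and less RNA per cell cannot be told apart.

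Groups of a stimulus were compared with limma on log2(FPKM + 1). A gene is said to have risen or fallen where its Benjamini-Hochberg adjusted p, taken over all genes tested, was under 0.001 and its change was at least 1.2-fold, which is 0.263 on the log2 scale. On log2(FPKM + 1) the change of a gene of low level is understated. The labels do not say whether the 3 libraries of a group came from separate mice or cultures, so the p-values measure the spread between these libraries, which may be technical. All 10 genes passed the M1 filter of at least 1 FPKM in 3 of 12 libraries. In M2, 9 passed, Nos2 did not, and Arg2 passed only through groups other than DA-treated WT.

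In M1 WT BMDMs, DA was followed by a rise of Arg1 and a fall of Odc1 and Slc7a2, and the other 7 genes did not pass the threshold. This was 3 of 10 members, against 14.3% of all genes tested. Among all genes 4.73% rose and 9.6% fell, so that 33.0% of the genes called were higher, a share that became 55.7% with median-of-ratios scaling and 51.9% with quantile normalization. The median log2 change of the members was -0.14, and that of all genes tested was -0.07. In M2 WT BMDMs, DA was followed by a rise of Arg1, Slc7a2, Odc1 and Azin1 and a fall of Sat1, Arg2 and Asl. This was 7 of 9 members tested, against 46.3% of all genes, of which 25.9% rose and 20.4% fell. The 7 include Arg2, which passed the filter only through untreated WT and DA-treated DRD5-/- cells, where it was higher. The median log2 change was -0.02 for the members and 0.03 for all genes. In DRD5-/- BMDMs, DA called 0 of 10 members in M1 and 1 of 9, Arg1, in M2, against 0% and 4.02% of all genes. For the count of 0, limma gave an unadjusted p under 0.05 for 2 of the 10 members and for 569 of 10040 genes, and the lowest adjusted p among the members was 0.851.

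**Figure D1:**
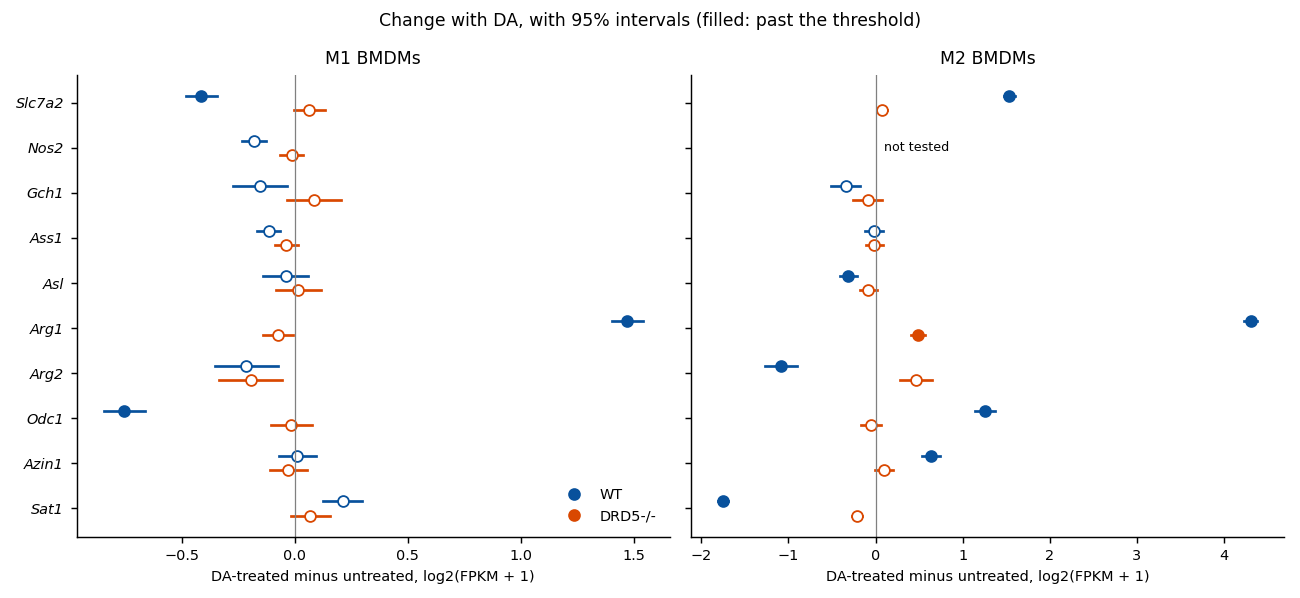
Difference in log2(FPKM + 1) between DA-treated and untreated BMDMs for each of the 10 genes, in M1 (left) and M2 cells (right, with its own horizontal scale), with the 95% interval of limma, in WT (blue) and DRD5-/- (orange) cells. Filled points passed the threshold: 3 WT and 0 DRD5-/- points in M1, and 7 WT and 1 DRD5-/- point in M2, where Nos2 was not tested.

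Arg1 encodes arginase 1, the cytosolic arginase (chromosome 10, 24915207 to 24927470, GRCm38.p6, NCBI gene 11846). In M1 cells it stood at 64.5, 64.7 and 64.0 FPKM in the 3 untreated WT libraries and at 180.9, 175.6 and 185.2 FPKM in the 3 DA-treated WT libraries. The 2 groups were far apart, and the mean rose 2.80-fold (log2 change 1.47, SE 0.0314, adjusted p = 8.34e-14). In M1 DRD5-/- libraries Arg1 was at 59.9, 61.9 and 62.6 FPKM untreated and at 60.8, 56.9 and 57.1 FPKM with DA. These overlapped (log2 change -0.07, SE 0.0314, adjusted p = 0.851), and the effect of DA differed between the genotypes by 1.55 (SE 0.0445, adjusted p = 5.55e-12). The neutrophil marker sum given above also rose from untreated to DA-treated M1 WT libraries and was lower in DRD5-/- libraries. That sum was lower already in untreated DRD5-/- (14.5 to 18.2 FPKM) than in untreated WT libraries (35.2 to 45.0 FPKM). Arg1 was not called between these 2 groups (log2 difference -0.07). The part of these markers was not tested.

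In M2 cells Arg1 was at 28.5, 29.9 and 28.5 FPKM in untreated WT libraries and at 589.3, 600.1 and 586.1 FPKM with DA. The mean rose 20.4-fold (log2 change 4.31, SE 0.0365, adjusted p = 5.33e-18). In M2 DRD5-/- libraries Arg1 went from 28.4, 29.3 and 27.8 FPKM to 42.0, 41.6 and 37.9 FPKM with DA, again without overlap. This 1.42-fold rise (log2 change 0.49, SE 0.0365, adjusted p = 9.49e-07) made Arg1 the only member called for DA in DRD5-/- cells of either stimulus. The difference between the genotypes was 3.82 (SE 0.0517, adjusted p = 2.91e-15). Between DA-treated cells of the 2 genotypes, Arg1 was 14.6-fold higher in WT in M2 and 3.10-fold higher in WT in M1.

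The 8 groups ranked by mean Arg1 level ran from untreated M2 DRD5-/- (28.5 FPKM) and untreated M2 WT (28.9 FPKM), which overlapped, through DA-treated M2 DRD5-/- (40.5 FPKM) to the other 3 M1 groups (58.3 to 64.4 FPKM), and then to DA-treated M1 WT (180.5 FPKM) and DA-treated M2 WT (591.8 FPKM). Untreated M2 libraries thus held less Arg1 than untreated M1 libraries. The files of the 2 stimuli listed different genes and may have been made separately, so levels are set side by side between M1 and M2 without a test. In the same untreated M2 WT libraries each of the IL-4/IL-13 markers summed above had a higher mean than in untreated M1 WT. Their levels differed widely. Mrc1, the mannose receptor, averaged 306 FPKM against 11.8 in untreated M1 WT, and Retnla averaged 104 FPKM and was listed at 0 in untreated M1 WT. Ccl24 averaged 9.78 FPKM against 1.11, and Ccl17 averaged only 0.347 FPKM against 0.

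The 5 genes most like Arg1 over the 24 libraries, with log2(FPKM + 1) centred within each stimulus, were Msr1 (r = 0.996), Mmp13 (r = 0.995), Spred1 (r = 0.989), Cd276 (r = 0.984) and Klf10 (r = 0.983), out of 9619 genes compared. The points share their libraries, and the coefficients are given as a description.

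Arg2 encodes arginase 2, the mitochondrial arginase (chromosome 12, 79130788 to 79156301). In M1 libraries it was at 6.71 to 9.06 FPKM, and it passed the threshold in no M1 comparison. In M2 libraries its level was low, at 1.31, 1.27 and 1.59 FPKM in untreated WT and 0.11, 0.10 and 0.17 FPKM in DA-treated WT cells. From the estimated depth, these levels stand for about 28 to 43 fragments and about 2.8 to 4.6 fragments per library. Arg2 fell (log2 change -1.08, SE 0.0846, adjusted p = 3.42e-08), the opposite direction to Arg1 in the same libraries. In M2 DRD5-/- cells Arg2 was at 0.93, 0.75 and 0.65 FPKM untreated and at 1.69, 1.34 and 1.32 FPKM with DA. The groups did not overlap and the higher values were those with DA (log2 change 0.46, SE 0.0846), but the adjusted p of 0.00111 missed the threshold. The DA effect differed between the genotypes by -1.55 (SE 0.12, adjusted p = 5.06e-08). Untreated DRD5-/- and WT M2 cells also did not overlap in Arg2, with the lower values in DRD5-/- (log2 difference -0.43, SE 0.0846, adjusted p = 0.002), which missed the threshold too.

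**Figure D2:**
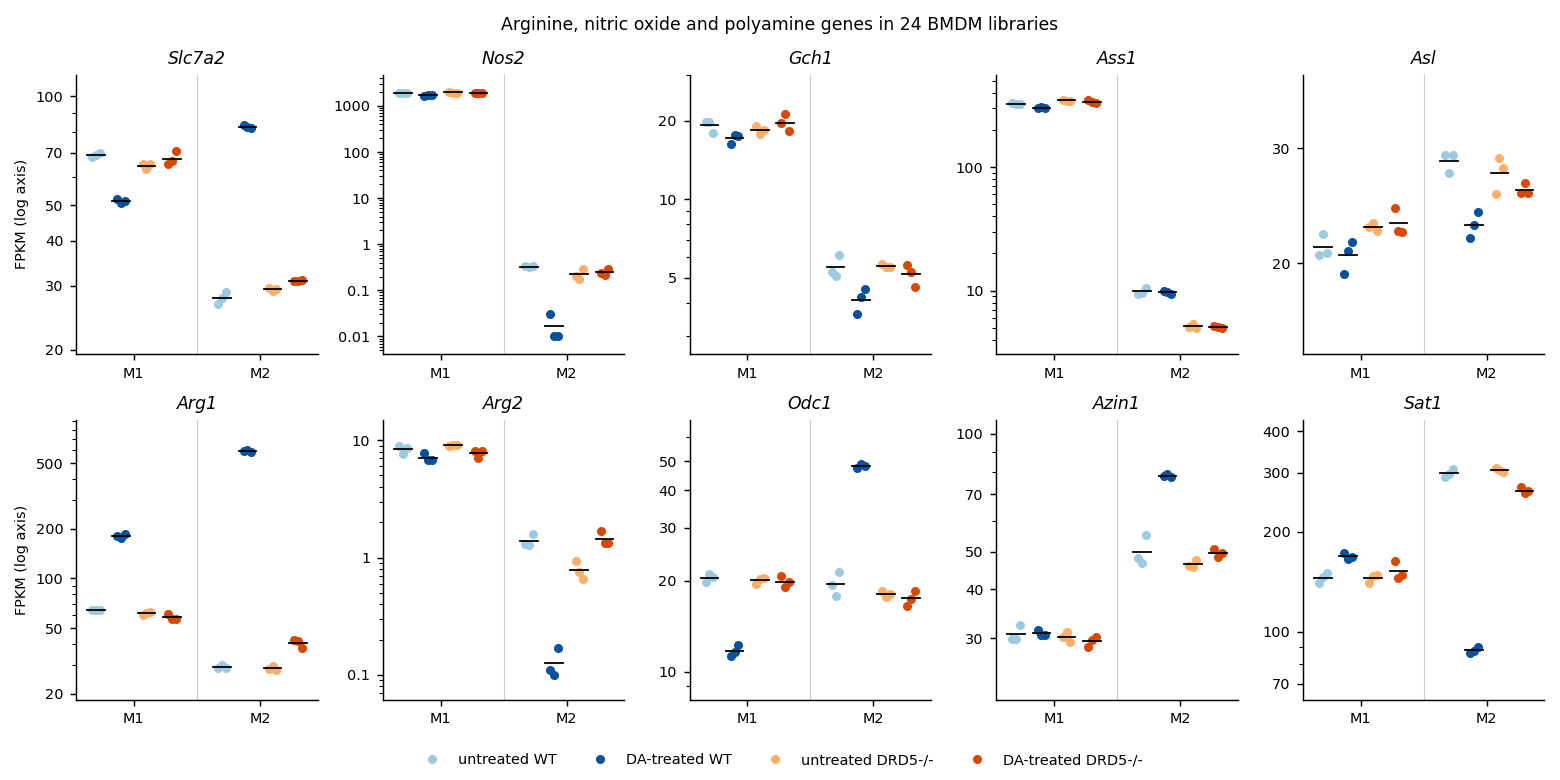
FPKM of each gene on a log axis in every library, with 1 panel per gene, the 12 M1 libraries on the left of a panel and the 12 M2 libraries on the right, coloured by genotype and DA treatment. Points are single libraries and black lines are group means. DA-treated M2 WT stands apart in Arg1 (586.1 to 600.1 FPKM), Odc1 (47.5 to 48.8 FPKM), Slc7a2 (81.7 to 83.5 FPKM), Azin1 (77.7 to 79.1 FPKM) and Sat1 (86.8 to 90.4 FPKM), while Ass1 in M2 separates by genotype.

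Slc7a2 encodes a cationic amino acid transporter that carries arginine and ornithine into the cell (chromosome 8, 40862341 to 40922070). In M1 WT cells it was at 68.1, 68.9 and 69.8 FPKM untreated and at 52.2, 50.8 and 51.5 FPKM with DA. It fell to 0.747 of its untreated mean (log2 change -0.41, SE 0.032, adjusted p = 1.15e-07). In M2 WT cells it moved the other way, from 26.8, 27.7 and 28.9 FPKM to 83.5, 82.4 and 81.7 FPKM. This was a 2.97-fold rise (log2 change 1.54, SE 0.0286, adjusted p = 9.48e-15). In DRD5-/- cells the log2 change with DA was 0.06 in M1 and 0.07 in M2, neither past the threshold. The DA effect differed between the genotypes by -0.48 in M1 (adjusted p = 2.51e-06) and by 1.46 in M2 (adjusted p = 1.48e-12). The level in DA-treated M2 WT cells was the highest of the 8 groups, above the 63.2 to 70.9 FPKM of the M1 groups other than DA-treated WT.

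Nos2 encodes inducible nitric oxide synthase (chromosome 11, 78920787 to 78960226). In M1 cells it was the most abundant of the 10 transcripts, at 1951, 1938 and 1917 FPKM in untreated WT and 1669, 1712 and 1744 FPKM in DA-treated WT libraries. The 2 groups did not overlap, but the log2 change of -0.18 (SE 0.0244, adjusted p = 3.2e-05) was smaller than 1.2-fold and Nos2 was not called. In M1 DRD5-/- libraries it was at 1937 to 2007 FPKM untreated and at 1938 to 1955 FPKM with DA (log2 change -0.01, 95% interval -0.07 to 0.04). The difference in DA effect, -0.17 (SE 0.0345, adjusted p = 0.00225), was not called. In M2 cells Nos2 was low. It was at 0.33, 0.32 and 0.33 FPKM in untreated WT, 0.03, 0.01 and 0.01 FPKM in DA-treated WT, 0.18 to 0.29 FPKM in untreated DRD5-/- and 0.22 to 0.29 FPKM in DA-treated DRD5-/- libraries. By the estimated depth this is about 21 to 26 fragments per library in untreated WT and about 0.80 to 2.4 in DA-treated WT cells. Without the filter on low values, Nos2 changed with DA in M2 WT cells by -0.38 (SE 0.0318, adjusted p = 1.18e-06) and in DRD5-/- cells by 0.03 (SE 0.0318, adjusted p = 0.654). Of 9620 genes, those most like Nos2 over the 24 libraries were Mmp14 (r = 0.978), Stat3 (r = 0.967), Il4i1 (r = 0.961), Cytip (r = 0.956) and Eva1b (r = 0.953), where the 12 M2 values of Nos2 were at most 0.33 FPKM.

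Within M1 libraries the ratio of Arg1 to Nos2 FPKM was 0.0333 ± 0.000178 (SD, n = 3) in untreated WT, 0.106 ± 0.00292 in DA-treated WT, 0.0313 ± 0.00131 in untreated DRD5-/- and 0.0300 ± 0.00122 in DA-treated DRD5-/- cells. Nos2 thus remained in large excess over Arg1 at the RNA level in every M1 library, with the smallest excess in DA-treated WT cells. The ratio is a description of these libraries and was not tested.

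Gch1 encodes GTP cyclohydrolase 1, which makes the first committed step towards tetrahydrobiopterin, the cofactor of nitric oxide synthases (chromosome 14, 47153895 to 47189413). Its mean was 19.2 FPKM in untreated and 17.1 FPKM in DA-treated M1 WT cells. In M2 WT cells it was at 5.25, 5.07 and 6.10 FPKM untreated and at 3.62, 4.21 and 4.51 FPKM with DA. The M2 groups did not overlap and the values with DA were lower (log2 change -0.34, SE 0.0778), but the adjusted p of 0.00123 missed the threshold. Gch1 passed it with median-of-ratios scaling (log2 change -0.36, adjusted p = 0.000728) and with quantile normalization (log2 change -0.38, adjusted p = 0.000548). In the other comparisons Gch1 was not called at the threshold used here.

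Ass1 and Asl encode argininosuccinate synthase and argininosuccinate lyase, which together rebuild arginine from citrulline (Ass1 on chromosome 2, 31470270 to 31520670, and Asl on chromosome 5, 130011258 to 130024381). In M2 cells Ass1 was called lower in DRD5-/- than in WT cells both with and without DA. It was at 9.43, 9.64 and 10.6 FPKM in untreated WT and 5.09, 5.38 and 4.95 FPKM in untreated DRD5-/- libraries. With DA it was at 9.87, 9.82 and 9.46 FPKM in WT and 5.21, 5.05 and 4.98 FPKM in DRD5-/- libraries. Every DRD5-/- library lay below every WT library, with a log2 difference of -0.82 both without DA (SE 0.0471, adjusted p = 2.61e-08) and with DA (SE 0.0471, adjusted p = 1.06e-09). Ass1 was the only member called between untreated genotypes in M2, 1 of 9, against 5.51% of all genes, and it was not called for DA in either genotype (log2 change -0.02 in WT, 95% interval -0.12 to 0.08, and -0.01 in DRD5-/-, 95% interval -0.12 to 0.09). The fibroblast marker sum given above was also lower in DRD5-/- than in WT M2 libraries. Unlike Ass1, that sum moved with DA. It went from 117.6 to 120.4 FPKM untreated to 93.1 to 94.6 FPKM with DA in WT. In DRD5-/- it went from 73.8 to 75.9 FPKM to 80.6 to 81.3 FPKM. The part of these markers was not tested. In M1 cells, where Ass1 was far more abundant, the direction was the other one: 331.0, 325.9 and 322.9 FPKM in untreated WT against 348.4, 344.3 and 345.3 FPKM in untreated DRD5-/- libraries. That log2 difference of 0.08 (SE 0.0238, adjusted p = 0.0409) was not called. No member was called between untreated genotypes in M1 (4 of 10 at an unadjusted p under 0.05, as were 2557 of 10040 genes), where 0.936% of all genes were. Whether the genotype difference of Ass1 itself differed between the stimuli was not tested.

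Asl varied least of the 10 genes, with a 1.40-fold span between its lowest and highest group mean. It was at 29.3, 27.5 and 29.3 FPKM in untreated and 21.9, 22.9 and 24.01 FPKM in DA-treated M2 WT libraries, a fall to 0.799 of the untreated mean (log2 change -0.31, SE 0.0463, adjusted p = 2.85e-05). In M2 DRD5-/- cells the change was -0.08 (95% interval -0.18 to 0.02). The difference between the genotypes, -0.23 (SE 0.0655, adjusted p = 0.00618), was not called, so the M2 fall in WT was not shown to depend on DRD5. In M1 it overlapped between untreated and DA-treated WT cells.

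Odc1, Azin1 and Sat1 act on polyamines. Odc1 encodes ornithine decarboxylase, which makes putrescine from ornithine and is the rate-limiting enzyme of polyamine synthesis. Azin1 encodes antizyme inhibitor 1, a relative of Odc1 without its activity that binds antizyme and so spares ornithine decarboxylase from degradation. Sat1 encodes spermidine/spermine N1-acetyltransferase, which acetylates the higher polyamines for export or breakdown. Because Odc1 and Sat1 moved in opposite directions in DA-treated M2 WT cells, and Ass1 by genotype, the promoters of these 3 genes are printed here, from 250 bases before to 50 bases after a transcription start of RefSeq (GRCm38.p6), 5′ to 3′ on the gene's strand. The Odc1 window is chr12:17544623-17544922 on the plus strand, the Sat1 window chrX:155216400-155216699 on the minus strand and the Ass1 window chr2:31470020-31470319 on the plus strand. Capitals mark matches on either strand to the letters TGACGTCA (the full cAMP response element), TGACG (its 5′ part, also contained in the full element), GGGCGG (the GC box), CACGTG (an E-box), TATAAA (the TATA box) and the NF-κB consensus.
Odc1: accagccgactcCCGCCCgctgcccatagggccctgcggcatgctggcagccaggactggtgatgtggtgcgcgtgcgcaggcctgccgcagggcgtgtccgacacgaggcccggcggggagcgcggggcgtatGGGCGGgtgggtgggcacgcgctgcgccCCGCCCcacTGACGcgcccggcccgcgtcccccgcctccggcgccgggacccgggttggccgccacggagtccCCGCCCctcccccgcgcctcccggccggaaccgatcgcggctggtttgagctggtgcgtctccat
Sat1: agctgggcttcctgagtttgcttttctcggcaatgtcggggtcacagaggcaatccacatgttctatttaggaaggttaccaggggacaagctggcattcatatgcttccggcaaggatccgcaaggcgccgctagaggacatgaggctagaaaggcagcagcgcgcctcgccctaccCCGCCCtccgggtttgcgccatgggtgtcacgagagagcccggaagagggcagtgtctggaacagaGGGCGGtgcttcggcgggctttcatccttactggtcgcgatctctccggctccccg
Ass1: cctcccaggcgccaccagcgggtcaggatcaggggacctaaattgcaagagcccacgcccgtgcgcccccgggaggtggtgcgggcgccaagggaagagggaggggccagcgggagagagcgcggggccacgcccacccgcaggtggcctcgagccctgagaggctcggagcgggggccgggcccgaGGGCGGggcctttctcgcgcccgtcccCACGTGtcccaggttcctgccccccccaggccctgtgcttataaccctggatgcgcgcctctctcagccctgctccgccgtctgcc

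The RefSeq promoter table held an entry for 4 of the 10 genes, Ass1, Gch1, Odc1 and Sat1. The Odc1 window held TGACG with its first base at position -79 from the start and 4 GC boxes, which begin at positions -238, -116, -88 and -15. The start used for Odc1 lies after base 17544808, where the gene begins, so the GC box at -15 lies within the gene. The Sat1 window held GC boxes at -72 and -6 and none of the other letters searched. The Ass1 window held a GC box at -63 and CACGTG at -36. In Gch1, whose window is not printed, a match to the NF-κB consensus began at -10 and TGACG at -88. That window also held GC boxes at -118 and -105 and, on the other strand, TATAAA at -188. Among all 32851 promoters of the table, 20.8% held TGACG, 1.79% TGACGTCA, 35.7% the GC box, 7.15% CACGTG, 13.6% TATAAA and 6.93% the NF-κB consensus. A match describes the letters of the window and nothing more.

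Odc1 (chromosome 12, 17544808 to 17551502) moved in opposite directions under the 2 stimuli. In M1 WT cells it was at 19.9, 21.1 and 20.6 FPKM untreated and at 11.3, 11.7 and 12.3 FPKM with DA, a fall to 0.572 of the untreated mean (log2 change -0.76, SE 0.0425, adjusted p = 4.71e-09). In M2 WT cells it was at 19.4, 17.9 and 21.4 FPKM untreated and at 47.5, 48.8 and 48.2 FPKM with DA, a 2.46-fold rise (log2 change 1.26, SE 0.0539, adjusted p = 4.68e-11). The untreated levels of M1 and M2 overlapped. In DRD5-/- cells Odc1 stayed at 19.0 to 20.8 FPKM in M1 and 16.5 to 18.6 FPKM in M2, with log2 changes of -0.02 (95% interval -0.11 to 0.08) and -0.05 (95% interval -0.16 to 0.07). The DA effect differed between the genotypes in both stimuli, by -0.74 in M1 (SE 0.0601, adjusted p = 5.7e-07) and 1.31 in M2 (SE 0.0762, adjusted p = 2.51e-09). Of the 8 group means, 6 lay between 17.5 and 20.5 FPKM, each overlapping the next in order, and only the 2 DA-treated WT groups lay outside.

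Azin1 (chromosome 15, 38487430 to 38519294) passed the threshold in no M1 comparison, at 29.9, 29.8 and 32.4 FPKM in untreated WT and 31.5, 30.7 and 30.6 FPKM in DA-treated WT libraries (log2 change 0.01, 95% interval -0.07 to 0.09). In M2 WT cells it was at 48.1, 46.7 and 55.2 FPKM untreated, where replicate 3 was the highest, and at 77.8, 79.1 and 77.7 FPKM with DA. It rose 1.56-fold (log2 change 0.64, SE 0.0469, adjusted p = 1.75e-08), and the effect differed from that in DRD5-/- cells by 0.54 (SE 0.0663, adjusted p = 5.61e-06).

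Sat1 (chromosome X, 155213126 to 155216449) fell in M2 WT cells. It was at 291.2, 297.3 and 308.5 FPKM untreated and at 86.8, 87.9 and 90.4 FPKM with DA, 0.296 of the untreated mean (log2 change -1.75, SE 0.0266, adjusted p = 1.52e-15). In M2 DRD5-/- cells it was at 311.1, 306.2 and 301.4 FPKM untreated and at 271.2, 260.2 and 263.8 FPKM with DA. These groups did not overlap either, and the log2 change of -0.21 (SE 0.0266, adjusted p = 8.19e-05) was under 1.2-fold. The genotypes differed in the DA effect by -1.54 (SE 0.0377, adjusted p = 4.27e-13). In M1 WT cells Sat1 was at 140.5, 146.4 and 150.0 FPKM untreated and at 172.0, 165.9 and 168.1 FPKM with DA. The values with DA were higher without overlap, but the log2 change of 0.21 (SE 0.0399, adjusted p = 0.000602) was under 1.2-fold. It passed the threshold with median-of-ratios scaling (log2 change 0.29, adjusted p = 6.8e-05) and with quantile normalization (log2 change 0.27, adjusted p = 2.23e-05).

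The ratio of Odc1 to Sat1 FPKM within a library set these opposite movements side by side. In M2 it was 0.0654 ± 0.00471 (SD, n = 3) in untreated WT, 0.545 ± 0.0111 in DA-treated WT, 0.0592 ± 0.00124 in untreated DRD5-/- and 0.0661 ± 0.00488 in DA-treated DRD5-/- cells. In M1 the order was turned, with 0.141 ± 0.00362 in untreated WT, 0.0697 ± 0.00382 in DA-treated WT, 0.138 ± 0.00108 in untreated DRD5-/- and 0.130 ± 0.00280 in DA-treated DRD5-/- cells. DA-treated WT libraries were thus at the top of the M2 and at the bottom of the M1 libraries. No test was made on the ratios.

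**Figure D3:**
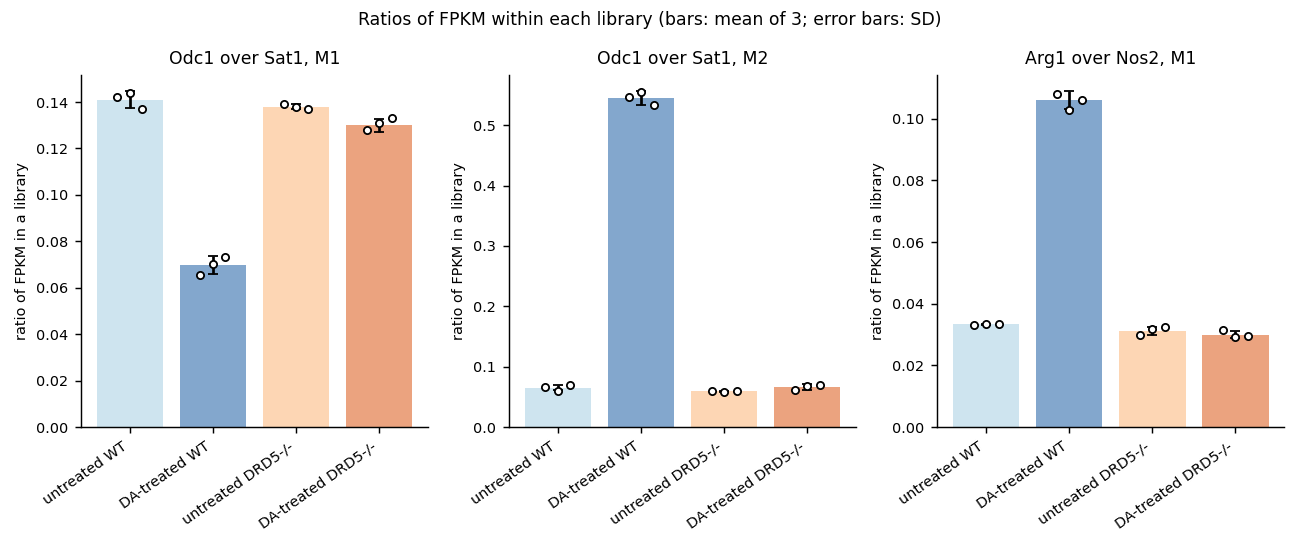
Ratio of the FPKM of 2 genes within each library, for Odc1 over Sat1 in M1 (left) and M2 (middle) and Arg1 over Nos2 in M1 (right), each with its own vertical scale. Bars are means of 3 libraries, error bars are SD and open points are libraries. Odc1 over Sat1 was lowest in DA-treated WT in M1 (0.0697) and highest in DA-treated WT in M2 (0.545).

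With DA present, the genotypes differed in 3 of 10 members in M1 and 7 of 9 in M2, against 18.5% and 49.7% of all genes. In M1 these were Arg1 (lower in DRD5-/-, log2 difference -1.62) and Slc7a2 and Odc1 (higher in DRD5-/-, 0.38 and 0.71). In M2, Arg1 (-3.84), Odc1 (-1.41), Slc7a2 (-1.39), Ass1 (-0.82) and Azin1 (-0.65) were lower and Sat1 (1.57) and Arg2 (1.12) higher in DRD5-/- than in WT cells. These comparisons share their DA-treated WT libraries with those of DA against untreated WT. The difference between the genotypes in the DA effect was called for 3 of 10 members in M1 (Arg1, Slc7a2 and Odc1) and 6 of 9 in M2 (Arg1, Slc7a2, Odc1, Azin1, Sat1 and Arg2), against 8.38% and 43.2% of all genes. Both M2 counts include Arg2, which passed the filter only through untreated WT and DA-treated DRD5-/- cells, where it was higher.

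The DA effect in WT cells was also compared between the stimuli, M2 minus M1, in a fit of all 24 libraries, where each effect is taken within the libraries of its own stimulus. In all, 6 of 10 members differed, against 45.9% of 11143 genes. The difference was positive for Arg1 (2.83, SE 0.0489, adjusted p = 5.98e-22), which rose under both stimuli and more in M2, and for Odc1 (2.02, SE 0.0709, adjusted p = 1.28e-16) and Slc7a2 (1.95, SE 0.0414, adjusted p = 2.17e-20), which fell in M1 and rose in M2. It was also positive for Azin1 (0.63). It was negative for Sat1 (-1.96, SE 0.0502, adjusted p = 5.28e-19) and Arg2 (-0.87). For Nos2, Gch1, Ass1 and Asl the difference was -0.20, -0.19, 0.10 and -0.27, none of them called. For Nos2 this cannot decide whether the stimuli differ. Its mean was 0.327 FPKM in untreated and 0.0167 FPKM in DA-treated M2 WT libraries, so adding 1 before the log2 kept its M2 change small. Nos2 entered this fit only through its M1 values. With 0.1 added instead, its difference was -1.70 and called, at about 0.80 to 2.4 estimated fragments per DA-treated M2 WT library. Asl was called here with median-of-ratios scaling (-0.34, adjusted p = 0.000143) and with quantile normalization (-0.45, adjusted p = 4.51e-06).

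Other genes of the same pathways were read from 7 lists written by name, also with earlier results of these data known. In M1 WT cells, 0 of the 41 list genes tested rose and 6 fell with DA, with a median log2 change of -0.10. Over all genes 14.3% were called, 4.73% higher and 9.6% lower, and the median was -0.07, so the share of list genes called was near that of all genes. Gatm, which makes the creatine precursor guanidinoacetate from arginine and glycine, was at 52.1, 52.9 and 55.0 FPKM untreated and at 24.3, 24.96 and 22.2 FPKM with DA (log2 change -1.13, SE 0.0412, adjusted p = 5.26e-11). It was not called in M1 DRD5-/- cells (log2 change 0.00, 95% interval -0.09 to 0.09), and the difference between the genotypes was -1.13 (adjusted p = 6.72e-09). Srm, the spermidine synthase next to Odc1 in the polyamine route, was at 1.24, 1.39 and 1.43 FPKM untreated and at 0.61, 0.57 and 0.47 FPKM with DA (log2 change -0.60, adjusted p = 0.000282). The mitochondrial ornithine carrier Slc25a15 (log2 change -0.40), the dihydropteridine reductase Qdpr (-0.36), which recycles tetrahydrobiopterin, and Eif5a (-0.36) and Dohh (-0.35) of the hypusine pathway were the other genes that fell. Srm and Slc25a15 reached 1 FPKM only in groups other than DA-treated WT. Hypusine is a modification of the translation factor eIF5A that is made from spermidine.

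In M2 WT cells, 22 of the 45 list genes tested rose and 4 fell with DA, with a median log2 change of 0.23 beside 0.03 over all genes. Over all genes 46.3% were called, 25.9% higher and 20.4% lower, and each list count below is read against these shares. The 22 include Ddah1 and Pycr1, which passed the filter only through the group where they were high. In transport, 4 of 6 genes rose. Slc7a1, the constitutive arginine transporter, went from 3.90, 3.80 and 3.84 FPKM to 22.4, 22.0 and 22.1 FPKM (log2 change 2.26, SE 0.0434, adjusted p = 1.25e-14), and Slc25a15 (0.45), Slc3a2 (0.40) and Slc7a6 (0.38) rose less. In the polyamine list 6 of 13 genes rose and 2 fell. Srm went from 24.5, 26.5 and 25.4 FPKM to 82.6, 90.2 and 86.4 FPKM (log2 change 1.72, SE 0.0392, adjusted p = 7.1e-14), and Mtap (1.41), which salvages the methylthioadenosine left by polyamine synthesis, and the spermine synthase Sms (0.73) rose as well. The antizyme genes Oaz1 (-0.48) and Oaz2 (-0.53), whose products hold ornithine decarboxylase in check, were the 2 that fell. The list also holds the oxidases Paox and Smox of polyamine breakdown. Paox was at 10.5, 9.20 and 9.96 FPKM untreated and at 12.9, 13.0 and 12.4 FPKM with DA, higher without overlap. The mean of Smox hardly moved (19.84 to 19.87 FPKM).

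The list of ornithine and proline had 5 of 7 genes higher and 1 lower in DA-treated M2 WT cells. Aldh18a1, which makes the shared precursor of ornithine and proline from glutamate, went from 4.86, 4.78 and 4.42 FPKM to 19.0, 20.3 and 18.6 FPKM (log2 change 1.83, SE 0.0509, adjusted p = 4.87e-13). Prodh (1.43), the proline dehydrogenase, and the reductase Pycr1 (0.94) also rose, and Aldh4a1 (-0.94), which acts next to Prodh in proline breakdown, fell. Before DA, Pycr1 was at 0.47 to 0.67 FPKM and passed the filter only through DA-treated WT cells. In the list of tetrahydrobiopterin 3 of 5 genes rose and 1 fell, among them the sepiapterin reductase Spr, with a log2 change of 0.31, while Pts, which acts after Gch1, was the gene that fell (-0.45). Eif5a rose by 0.79, from 634.5, 639.8 and 601.8 FPKM to 1076, 1066 and 1092 FPKM, and was 1 of 4 in the hypusine list. In the list of nitric oxide synthases and their regulation 3 of 8 rose, among them Ddah1 (0.41), which was at 0.50 to 0.71 FPKM in the other M2 libraries and passed the filter only through DA-treated WT cells, and Adh5 (0.29), and in that of the urea cycle and guanidino compounds 0 of 2 were called.

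In DRD5-/- cells DA called 0 of 41 list genes in M1 (limma, as above) and 1 of 45 in M2, where 4.02% of all genes were called. The 1 was Atp13a3, a polyamine transporter of endosomes, with a log2 change of 0.30 (adjusted p = 0.000418), as large as in WT (0.30). The difference between the genotypes in the DA effect was called for 2 of 41 list genes in M1, Gatm and Eif5a, against 8.38% of all genes, and for 26 of 45 in M2, against 43.2% of all genes, 21 of them positive, among them Slc7a1 (2.198), Srm (1.95) and Aldh18a1 (1.84). The 45 include Ddah1 and Pycr1, which passed the filter only through DA-treated WT cells, where they were high. Between untreated genotypes 0 of 41 were called in M1 and 1 of 45 in M2, against 0.936% and 5.51% of all genes. The 1 was Paox, a polyamine oxidase (0.30, higher in DRD5-/-).

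**Figure D4:**
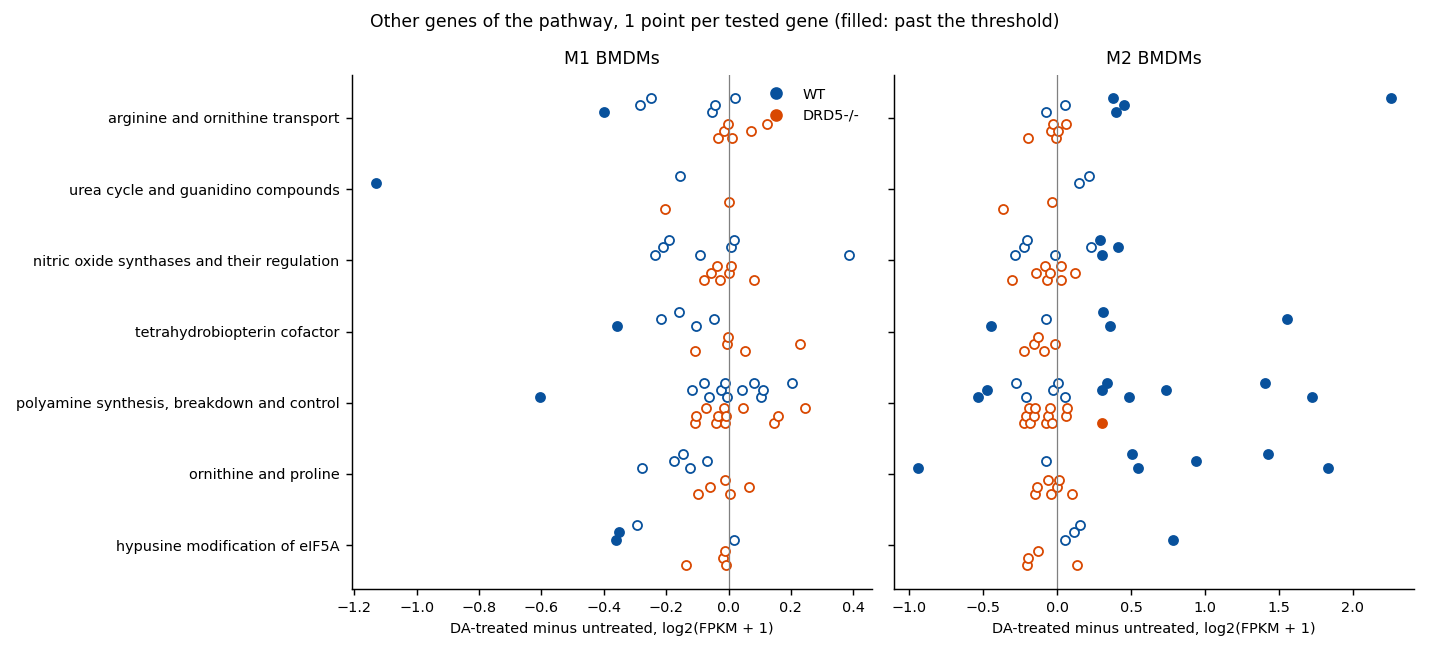
Difference in log2(FPKM + 1) between DA-treated and untreated BMDMs for each tested gene of the 7 pathway lists (the 10 members left out), in M1 (left) and M2 cells (right, with its own horizontal scale), in WT (blue) and DRD5-/- (orange) cells. Filled points passed the threshold: 6 WT points in M1, all below 0, and 26 WT points in M2, 22 above and 4 below 0, with 0 and 1 filled DRD5-/- points.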

How the data were processed

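Total RNA of BMDMs was sequenced on a BGISEQ-500 in 24 libraries. The authors filtered the reads, mapped them with HISAT2 to GRCm38 and deposited FPKM with 2 decimals. The submitters' processing notes also name Bowtie2 2.2.5 and GRCm38.p6, and the role of each tool is not given in the sources used here. The deposited FPKM were used as they stood, so the authors' length and depth scaling is in every value, and intervals for counting error could not be made. M1 and M2 files list different genes (17109 shared). The 10 members and the gene lists were chosen with earlier results of these data known.

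For each stimulus a model of 4 group means was fitted to log2(FPKM + 1) in limma 3.58.1 (R 4.3.3), with an intensity trend, for genes of at least 1 FPKM in 3 of 12 libraries (10040 in M1 and 10735 in M2). The comparison of the stimuli used all 24 libraries. A call needed an adjusted p under 0.001 (Benjamini-Hochberg) and 1.2-fold. All 10 members were named. Oaz1, and Paox and Smox for DA in M2 WT, were named after their values were seen. From each list the rule named up to 4 called genes with the largest change per comparison. Some list genes that this rule names are not reported here. Fragments were estimated from the spacing of low FPKM and the longest coding transcript in GENCODE M21. The alternatives were quantile normalization, median-of-ratios scaling, a pseudocount of 0.1, no filter, no trend, a replicate block, 2-fold, an adjusted p of 0.05, the compared groups alone and leaving out each library. The fit was tested on simulated data. Python 3.11.15, numpy 2.4.6, pandas 2.3.3 and matplotlib 3.10.9 were used.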

Additional observations from a re-analysis of the deposited data

Results flagged for a closer look

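For 9 values the effect of DA differed between WT and DRD5-/- BMDMs, by limma's test of that difference on log2(FPKM + 1), given as the effect in WT minus that in DRD5-/- cells. In M1 these were Arg1 (1.55), Slc7a2 (-0.48) and Odc1 (-0.74). In M2 they were Arg1 (3.82), Slc7a2 (1.46), Odc1 (1.31), Azin1 (0.54), Sat1 (-1.54) and Arg2 (-1.55). Arg2 passed the M2 filter only through untreated WT and DA-treated DRD5-/- cells, where it was higher. Among all genes tested, such a difference was called for 8.38% in M1 and 43.2% in M2.

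For 6 values the effect of DA in WT BMDMs differed between the stimuli, given as M2 minus M1. These were Arg1 (2.83), Slc7a2 (1.95), Odc1 (2.02), Azin1 (0.63), Sat1 (-1.96) and Arg2 (-0.87). Among all genes tested, a difference between the stimuli was called for 45.9%. With 3 libraries in a group, single libraries were not examined as outliers.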

How the results depend on the processing

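Of 2296 values of members under the alternatives, none changed sign where called, 2257 stayed on their side of the threshold, 15 fell short of it, all at a required change of 2-fold, and 24 newly passed it.

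At 2-fold the members called were 1 in M1 (Arg1) for DA in WT, for DA-treated DRD5-/- against DA-treated WT and for the difference of the DA effect. In M2 they were 0 for DA in DRD5-/- and 0 for untreated DRD5-/- against untreated WT, and at an adjusted p of 0.05 both counts were 2. Without an intensity trend DA in M2 DRD5-/- called 2 (Arg2 with an adjusted p of 0.000968). Leaving out each library gave 3 to 3, 0 to 0, 0 to 0, 3 to 3 and 3 to 3 members in the M1 comparisons, in the order DA in WT, DA in DRD5-/-, untreated genotypes, DA-treated genotypes and difference. In M2 it gave 7 to 8, 1 to 2, 1 to 1, 7 to 7 and 6 to 6, and 6 to 7 for M2 minus M1. The 2 members for DA in M2 DRD5-/- came without untreated WT replicate 3, where Arg2 was called at 0.46 (adjusted p = 0.000985). The 8 for DA in M2 WT came with Gch1, without DA-treated WT replicate 3 (-0.40) or DA-treated DRD5-/- replicate 3 (-0.34). The 7 for M2 minus M1 came with Asl (-0.32 to -0.27), without any 1 of untreated WT replicate 2, DA-treated WT replicate 1 or DA-treated DRD5-/- replicate 1 of M1, or of untreated WT replicate 2, DA-treated WT replicate 3 or untreated DRD5-/- replicate 1 or 2 of M2. The replicate block left the members called as they were (3, 0, 0, 3 and 3 in M1, 7, 1, 1, 7 and 6 in M2, and 6 between stimuli) and took the genes called for DA in WT from 1439 to 1359 in M1 and from 4971 to 4906 in M2. Libraries sharing a number were not alike (mean residual r of -0.02 in M1 and in M2).

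Over all genes, 2-fold left 44 of 1439, 13 of 94, 60 of 1861 and 41 of 841 calls in M1, 626 of 4971, 3 of 432, 36 of 592, 741 of 5333 and 750 of 4636 in M2, and 954 of 5114 between stimuli. An adjusted p of 0.05 gave 202 for the untreated genotypes and 1836 for the difference in M1, and 719 for DA in DRD5-/- and 895 for the untreated genotypes in M2. The 94 genes called between untreated M1 genotypes became 43 without the filter, 36 without a trend, and 45, 36 and 57 without untreated WT replicate 3 or untreated DRD5-/- replicate 2 or 3. The cause of these shifts was not tested. With a pseudocount of 0.1, Nos2 was called in M2 minus M1 (-1.70, against -0.20 with 1), at under 3 estimated fragments in each DA-treated M2 WT library. Fits of the compared groups alone were not made for the differences of DA effects, which need 4 groups. The depth of 15700000 to 19700000 fragments limits Nos2 and Arg2 in M2.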
